A study of Mus musculus with 8 samples.

Results

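The control infarct fibroblasts are 4 samples of PDGFRα-sorted cells from infarcted mouse hearts, taken 7 days after coronary occlusion, out of 8 samples in the series. Their genotype is TbR2fl/fl, meaning that they carry the floxed Tgfbr2 gene, which encodes the type 2 receptor for TGF-β. The control mice were given tamoxifen, as were the mice of the other group, and the cells were sorted from the heart without culture. The sources used here give no age or sex for the mice and do not say which cells drive the recombinase in the other group or whether each sample is 1 animal. The libraries are numbered 5 to 8 after their titles, and the spread between them may be partly technical. The genes described are protein-coding and reached 1 FPKM or more in each of the 4 libraries. FPKM is the number of fragments divided by the counted length of the gene and scaled to the fragments of the library, so levels of different genes are compared per length. This rule kept 10024 of 22046 protein-coding genes, in a table of 54532 genes of all kinds. There is 1 group and no genotype comparison, so no value below has a p-value, and the spread over the 4 libraries is given in its place.

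After a coronary artery is blocked, heart muscle dies and resident fibroblasts multiply, take on contractile features and secrete a collagen scar. PDGFRα is a receptor tyrosine kinase on the surface of these cells and is widely used to sort them. Such secretory cells devote much of their message to collagens, to adhesive and matricellular glycoproteins, and to enzymes that hydroxylate, fold and cross-link collagen chains.

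Of the remaining protein-coding genes, 1029 reached 1 FPKM in 1 to 3 libraries and 10993 in none, among them 5022 listed at 0 in all 4. The rule therefore leaves out low genes that vary across the threshold. Just inside it were Osbpl10, Adam5 and Ankrd49, with a lowest value of 1.0005, 1.0008 and 1.0009 FPKM. Just outside were Cd40, Zfp429 and Aldh5a1, with a lowest value of 0.9997, 0.9977 and 0.9963 FPKM.

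Reads recovered from the FPKM values came to 27.7, 28.6, 21.2 and 28.7 M (M, 1e6 reads) in TbR2fl/fl 5, 6, 7 and 8. The 10024 genes held 96.4 to 97.3% of these reads. Pearson's r of log2(FPKM + 1) across these genes, which are not independent replicates, lay between 0.973 (libraries 5 and 8) and 0.992 (libraries 6 and 8). All pairs differed by more than counting noise, with a chi-square over its degrees of freedom of 32.8 for the closest pair, 6 and 8. Xist, the non-coding RNA of the inactive X chromosome, was at 49.0, 30.7 and 33.8 FPKM in libraries 5, 6 and 7 and at 0.0215 FPKM in library 8. The Y-linked Ddx3y and Eif2s3y were at 14.2 and 11.4 FPKM in library 8 and at no more than 0.0470 FPKM elsewhere. What sets library 8 apart therefore cannot be told apart from the sex of its mouse or mice.

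The fibroblast markers were all present. Pdgfra, the sorted receptor, stood at 71.1, 49.2, 64.4 and 45.5 FPKM, Postn, the periostin of activated fibroblasts, at 1018, 1354, 1416 and 1252 FPKM, and Col1a1 at 5112, 5338, 4682 and 4887 FPKM. All 11 fibroblast markers passed the threshold in all 4 libraries, and their summed level ran from 9134 to 13677 FPKM. Col1a1 and Gsn, with means of 5005 and 2768 FPKM, led this sum. The lowest of the list were Thy1, Ddr2 and Fap, with means of 30.6, 25.6 and 12.2 FPKM. Defining markers of other cells were at or near 0. The leukocyte marker Ptprc did not exceed 0.0192 FPKM and the T-cell gene Cd3e was listed at 0 in all 4 libraries. The cardiomyocyte gene Myh6 stood at 0.375, 0.279, 0.167 and 0.256 FPKM. None of the 13 cardiomyocyte, 8 lymphocyte or 6 neutrophil markers was among the 10024 genes, and 3 of 14 macrophage markers were (Lyz2, Cd68 and Cd14, with means of 4.43, 3.39 and 1.92 FPKM).

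Mural markers, which label pericytes and smooth muscle, were the exception: 7 of 8 passed the threshold and their sum was 63.8, 72.7, 57.5 and 82.6 FPKM. Notch3 (24.6 ± 5.04 FPKM, mean ± SD, n = 4) and Rgs5 (20.3 ± 0.994 FPKM) led them, while the smooth muscle myosin gene Myh11 stood at 1.43 ± 0.190 FPKM. Of the 10 endothelial markers 1 passed, the angiopoietin receptor Tek at 20.6, 17.2, 26.8 and 15.1 FPKM, whereas Pecam1 did not exceed 0.818 FPKM. Mesothelial and erythroid markers differed most between libraries. The mesothelial sum was 27.4, 12.1, 0.931 and 17.0 FPKM and the erythroid sum 6.55, 43.6, 3.56 and 7.17 FPKM. In bulk RNA, fewer cells of a type and less RNA per cell cannot be told apart.

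**Figure D1:**
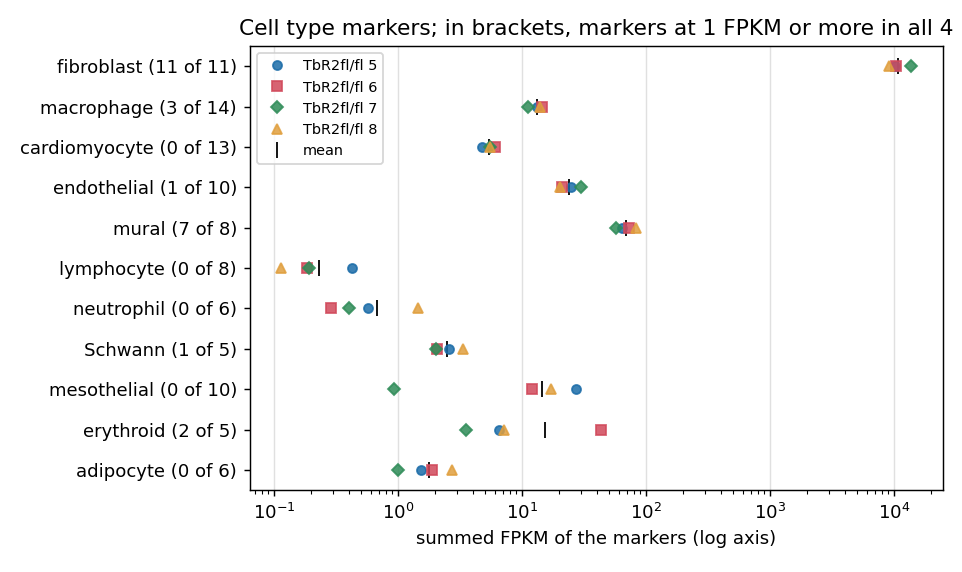
Summed FPKM (log axis) of the marker genes of 11 cell types in TbR2fl/fl 5 to 8, with the mean as a bar; the brackets give how many markers passed the threshold. The fibroblast sum, led by Col1a1 and Gsn, lies at 9134 to 13677 FPKM and the mural sum, the next highest, at 57.5 to 82.6 FPKM.

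The transcriptome was concentrated in few genes, and collagens and other matrix genes were among the leading ones. The 20 highest genes held 17.4 ± 0.337% of the summed FPKM of the 10024 genes (n = 4), the 100 highest 34.8 ± 0.724% and the 1000 highest 68.4 ± 1.29%. It took 308, 274, 260 and 284 genes to reach 50% of the sum in libraries 5 to 8. The median gene stood at 6.36 to 6.60 FPKM, and 18 to 21 genes per library exceeded 1000 FPKM.

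Col1a1 (chromosome 11, 94936224 to 94953042, plus strand, GRCm38), the α1 chain of type I collagen, was the highest gene at 5005 ± 283 FPKM. Col3a1, the chain of type III collagen, followed at 4548, 4330, 4124 and 3623 FPKM. The mitochondrial cytochrome oxidase gene mt-Co1 stood at 2356, 3499, 3578 and 3378 FPKM, low in library 5 and similar in the others. Sparc, a collagen-binding matricellular protein, was steadier, at 2860, 3015, 2790 and 3391 FPKM. Gsn, the actin-severing gelsolin, was by contrast at 5361 FPKM in library 7 against 2261, 1957 and 1492 FPKM in libraries 5, 6 and 8, and there exceeded Col1a1. Next came Igfbp7 (2694 ± 439 FPKM), which binds insulin-like growth factors, Mgp (2274 ± 503 FPKM), an inhibitor of calcification, and the elongation factor Eef1a1 (2158 ± 236 FPKM). Col1a2, Rplp1, Bgn, mt-Cytb, Fos, Fstl1, Postn, Fn1, mt-Nd1, Mfap4, Serpinh1 and Eln completed the 20, with means from 1898 down to 944 FPKM. Of the 20, 11 belong to the matrix classes described next.

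**Figure D2:**
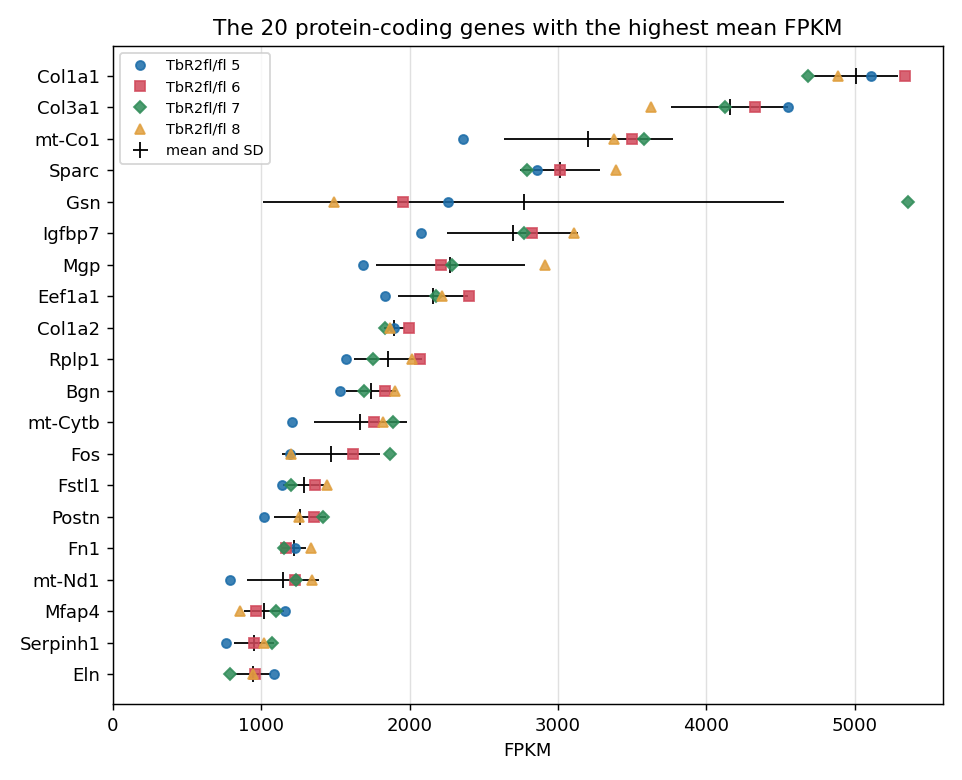
FPKM of the 20 protein-coding genes with the highest mean in TbR2fl/fl 5 to 8, with the mean and SD in black. Col1a1 and Col3a1 lead with 3623 to 5338 FPKM, and Gsn has the widest spread, from 1492 to 5361 FPKM.

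The 10024 genes were sorted into 33 classes that do not overlap, which took in 986 of them. The other 9038 held 46.9 ± 1.23% of the summed FPKM. The 9 matrix classes, with 170 genes, held 20.3, 19.0, 19.0 and 19.8% (19.5 ± 0.661%), the largest share of any group of classes. Translation followed with 9.63 ± 0.619% and stress genes, the immediate-early class included, with 5.28 ± 0.802%. These shares are per length. Weighted by gene length, which gives shares of reads, matrix held 29.3%, because many matrix transcripts are long.

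Single classes followed an order that was partly stable. Cytosolic ribosomal proteins led with 7.21 ± 0.512%, above the matricellular and adhesive glycoproteins (5.48 ± 0.382%) in 4 of 4 libraries. The fibrillar collagens (5.19 ± 0.568%) came next, but the latter pair kept its order in only 3 of 4 libraries and differed by less than its SD. Immediate-early genes (3.41 ± 0.703%), mitochondrially encoded subunits (3.33 ± 0.418%) and the actin class (3.28 ± 0.509%) could not be ordered beyond their spread either. By reads the order was another one: fibrillar collagens 11.3%, matricellular glycoproteins 6.21% and ribosomal proteins 2.81%. At the other end stood hyaluronan and its proteoglycans (0.0658 ± 0.0120%) and cell cycle genes (0.0638 ± 0.0131%).

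**Figure D3:**
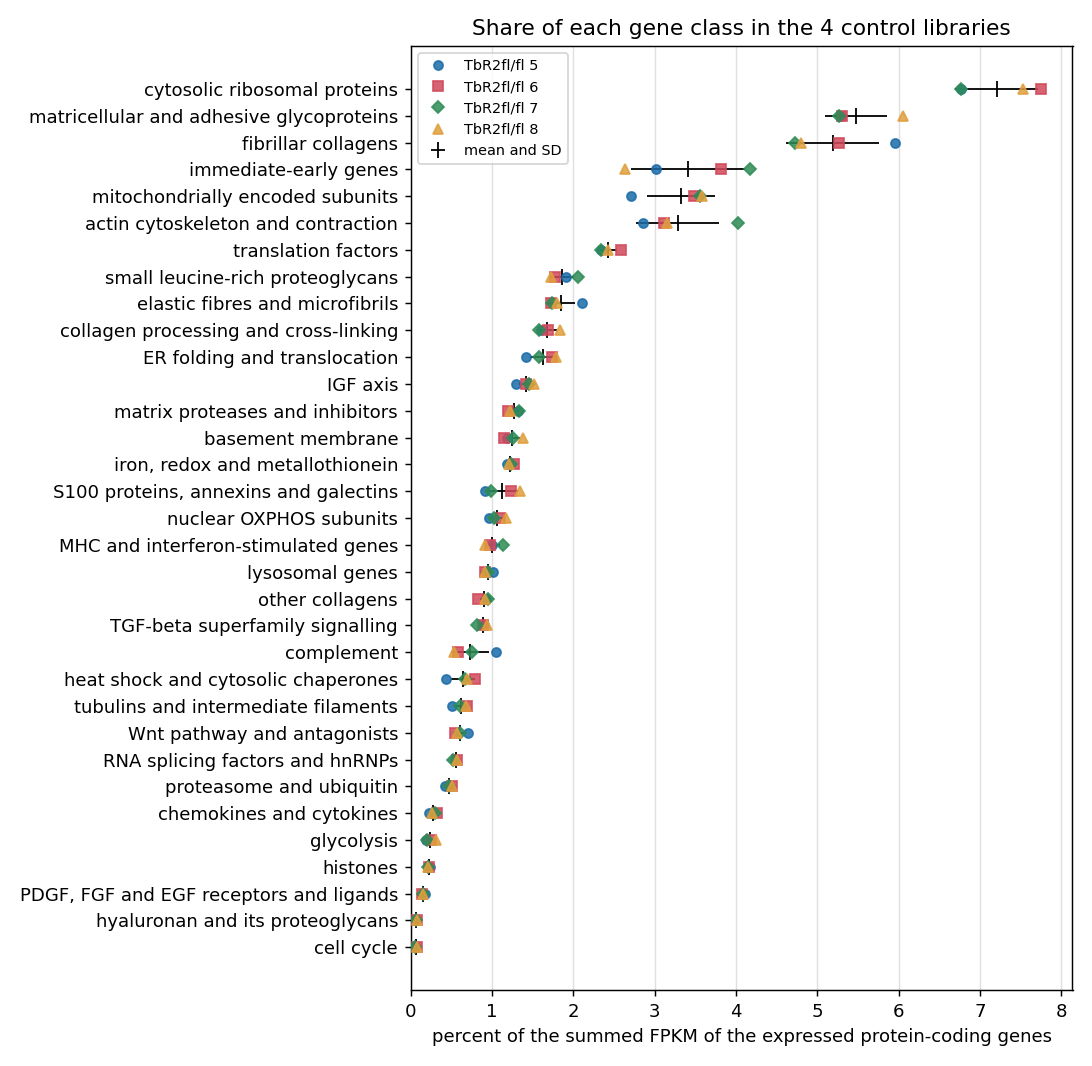
Percent of the summed FPKM held by each of the named gene classes in TbR2fl/fl 5 to 8, with the mean and SD in black. Ribosomal proteins lead with 6.77 to 7.75%, followed by the matricellular glycoproteins and fibrillar collagens.

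Among the fibrillar collagens, which form the tensile fibres of scar, 10 of 11 genes passed the threshold. The 3 chains of types I and III, Col1a1, Col3a1 and Col1a2, made up 89.5 ± 1.19% of the class. As deposited, Col1a2 varied little, at 1891, 1998, 1834 and 1867 FPKM. The level of Col1a1 over that of Col1a2 was 2.70, 2.67, 2.55 and 2.62. This ratio depends on the counted lengths, 6563 bases for Col1a1 and 12426 for Col1a2. In reads they lay closer, at 985236 against 690228 in library 5 and 913048 against 660436 in library 8. Both chains enter the same type I collagen molecule. Col5a1 and Col5a2, whose product sets fibre diameter, stood at 676 ± 53.6 and 496 ± 69.5 FPKM. Col24a1, a minor fibrillar chain, was at 6.87 FPKM in library 5 and at 2.04 to 3.39 FPKM in the others.

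Network and beaded-filament collagens were lower than the chains of types I and III, and some pairs of chains kept a nearly constant ratio. The 3 chains of type VI collagen, which form microfibrils around cells, stood at 680 ± 85.7 (Col6a1), 344 ± 44.6 (Col6a2) and 172 ± 44.3 FPKM (Col6a3). Col6a1 over Col6a2 was 1.93 to 2.03, whereas Col6a3 over Col6a2 ranged from 0.410 to 0.567. These ratios depend on the counted lengths, 4380 bases for Col6a1, 8326 for Col6a2 and 11963 for Col6a3. Reads were close, at 79785, 77258, 72034 and 83864 for Col6a1 and 74658, 75948, 69390 and 80618 for Col6a2. The basement membrane chains Col4a1 (405, 601, 559 and 759 FPKM) and Col4a2 (354, 516, 441 and 664 FPKM) were lowest in library 5 and highest in library 8, with a ratio of 1.14 to 1.27 between the 2 chains. Col6a5 was at 16.5 FPKM in library 5 and at 4.78, 1.79 and 4.63 FPKM in the others.

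The matricellular and adhesive glycoproteins, which tune how cells attach to matrix, counted 33 of 37 genes. Fn1, fibronectin, was steady at 1230, 1169, 1154 and 1335 FPKM. Ctgf, the connective tissue growth factor now named Ccn2, was not, at 528, 988, 718 and 1336 FPKM. Spp1, osteopontin, ran from 10.4 FPKM in library 5 to 42.7 in library 8. A range of at least 2-fold between the lowest and highest library was found for 8 of the 33 (24.2%), against 5.02% of all 10024 genes.

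The small leucine-rich proteoglycans, which coat collagen fibrils, were led by Bgn (1740 ± 166 FPKM), Dcn (784 ± 189 FPKM) and Lum (690 ± 109 FPKM). Of 13 such genes 11 were highest in library 7 as deposited, and 8 to 10 under other scalings, against 25.6% of all genes as deposited and 11.6 to 21.1% under the others. Of the 15 elastic fibre genes 0 had a 2-fold range, against 5.02% of all genes, and their median CV was 14.9%, against 11.8% for all genes. Mfap4, a microfibril protein, stood at 1158, 962, 1100 and 858 FPKM, and Eln, elastin itself, at 1085, 959, 787 and 946 FPKM.

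Collagen processing was led by Serpinh1, the collagen chaperone, at 764, 950, 1070 and 1016 FPKM. Loxl1, a cross-linking lysyl oxidase, barely varied as deposited, at 708, 706, 688 and 721 FPKM. Its relative Lox stood at 414, 596, 404 and 719 FPKM. The endoplasmic reticulum class, led by the protein disulfide isomerase gene P4hb (411 ± 70.6 FPKM), held 1.63 ± 0.167%. Among proteases and their inhibitors, Mmp2, a gelatinase, stood at 639 ± 100.3 FPKM and Timp2, its inhibitor, at 448 ± 47.1 FPKM. Of the 33 genes of this class 8 (24.2%) had a 2-fold range, against 5.02% of all genes.

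Ribosomal protein genes, 81 in number, had a median level of 152 FPKM and were led by Rplp1 (1854 ± 232 FPKM) and Rplp0 (835 ± 115 FPKM), both of the ribosomal stalk. As deposited, 77 of the 81 were lowest in library 5, against 42.3% of all genes. This depended on the scaling, since a constant sum over the 10024 genes shifts library 5 by 0.16 on the log2 scale against -0.06 to -0.04 for the others: with that sum held constant, 38 were lowest in library 5 and 40 in library 7, and after quantile normalization 18 and 54. Of all genes 18.2 and 30.3% were lowest in these libraries with a constant sum, and 33.7 and 21.8% after quantile normalization. That 50 to 57 of the 81 were highest in library 6 held under all 4 scalings, against 18.7% of all genes as deposited and 12.2 to 17.7% under the others. Rpl21 (9.73, 39.9, 10.9 and 33.8 FPKM) and Rps27a (37.4, 92.9, 37.2 and 49.9 FPKM) varied most. Both have near-identical copies in the genome that can take their reads, so their levels are uncertain. The same holds for Rps10 at 1.39 ± 0.154 FPKM and for the glycolytic gene Gapdh at 3.03, 9.38, 5.64 and 2.26 FPKM.

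Of the mitochondrially encoded subunits of the respiratory chain, 12 of 13 genes passed. All 12 were lowest in library 5 under all 4 scalings, against 42.3% of all genes as deposited and 18.2 to 34.7% under the others. Their summed level was 2.79, 3.15, 3.48 and 3.07 times that of the 80 nuclear subunits. Levels within the mitochondrial genome were uneven: mt-Co1 and mt-Cytb averaged 3203 and 1668 FPKM, mt-Co2 and mt-Co3 no more than 29.2 and 12.1 FPKM in any library. Mitochondrial sequences have copies in the nuclear genome, so low values of this kind are uncertain.

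In the actin class, Actb and Actg1, the cytoplasmic actins, stood at 374, 656, 529 and 731 and at 293, 494, 410 and 518 FPKM. Acta2, the smooth muscle actin that marks myofibroblasts, stood at 139, 293, 160 and 367 FPKM, so that libraries 6 and 8 lay above 5 and 7. As deposited 43 of the 57 genes were highest in library 8, and 41 or 42 under the other scalings, against 29.1% of all genes as deposited and 23.2 to 27.9% under the others. The share of the class peaked in library 7 (2.85, 3.11, 4.02 and 3.15%), but without Gsn it was 1.79, 2.32, 1.88 and 2.55%. The mural sum, given above, has the same highest library, and its part in these values was not tested.

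Cell cycle genes were low and showed the same split between libraries. Of 44 genes 27 passed, with a median mean of 3.53 FPKM. Mki67, a marker of dividing cells, stood at 1.39, 2.93, 1.44 and 3.57 FPKM and Top2a, which untangles replicated DNA, at 1.11, 3.36, 1.27 and 3.29 FPKM. Ccnd1, cyclin D1, stood at 3.58, 9.91, 6.77 and 17.2 FPKM. Libraries 6 and 8 thus lay above 5 and 7 for all 3 genes, and 13 of the 27 genes (48.1%) had a 2-fold range, against 5.02% of all genes. Some macrophage genes, all at low levels, were also higher in libraries 6 and 8, and their part in these values was not tested. C1qb stood at 0.188, 1.20, 0.404 and 1.91 FPKM, C1qa at 0.164, 1.29, 0.0940 and 0.844 FPKM, and Tyrobp at 0.0510, 0.584, 0.0733 and 0.474 FPKM. The Tyrobp values rest on 1, 11, 1 and 9 reads. Not all macrophage markers had this split. Cd68 (5.36, 2.84, 3.34 and 2.01 FPKM) and Cd14 (2.14, 1.76, 2.14 and 1.65 FPKM) were lower in libraries 6 and 8. The sum of the macrophage list was 13.2, 14.4, 11.3 and 13.8 FPKM.

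Immediate-early genes, which growth factors and stress switch on within minutes, were abundant. Fos stood at 1196, 1620, 1865 and 1202 FPKM, Junb at 677, 1017, 1126 and 692 FPKM, and Jun at 667, 866, 998 and 613 FPKM. All 3 encode subunits of the AP-1 transcription factor, and all were highest in library 7 and second in library 6. Every one of the 30 genes was highest in library 6 or 7 as deposited (13 and 17), and 29 of 30 after constant-sum scaling (14 and 15). Of all genes 18.7 and 25.6% were highest in these libraries as deposited and 12.2 and 11.6% with a constant sum. Which library was lowest depended on the scaling: as deposited 21 genes were lowest in library 5 and 9 in library 8 (42.3 and 24.7% of all genes), and with a constant sum 9 and 21 (18.2 and 28.5% of all genes). Atf3, a stress-induced repressor, was widest among the named ones at 61.0, 174, 201 and 84.6 FPKM, and 8 of the 30 (26.7%) had a 2-fold range, against 5.02% of all genes.

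These genes gave the transcription factors their weight. The deposited table assigns 1469 genes to a factor family, of which 664 passed, with 5.04 ± 0.514% of the summed FPKM. The 36 factors with a basic leucine zipper, Fos and Jun among them, held 1.91 ± 0.338%, more than the 264 zinc-finger factors of the C2H2 type (1.15 ± 0.145%). Other factors tied to cardiac fibroblasts were lower than Fos and Jun. Tcf21 stood at 49.0, 74.6, 88.2 and 59.3 FPKM and Meox1 at 74.3, 126, 155 and 177 FPKM. Tbx20 stood at 43.8 ± 6.65, Sox9 at 35.3 ± 3.97 and Gata4 at 31.6 ± 4.73 FPKM.

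Heat shock genes set library 5 apart. Hspb1, a small heat shock protein, stood at 113, 308, 241 and 252 FPKM, Hspa1b, the inducible Hsp70, at 40.3, 222, 173 and 170 FPKM, and Hsp90aa1, the inducible Hsp90, at 37.6, 110, 89.5 and 83.4 FPKM. Hspa1a, a near-identical copy of Hspa1b, stood at 18.5, 108, 89.4 and 84.1 FPKM, and reads of that pair cannot be assigned with certainty. For each of them library 5 lay more than 2-fold below the next lowest library, and libraries 6 to 8 lay close together. Of their constitutive relatives, Hsp90ab1 stood at 270.5, 379, 364 and 364 FPKM and Hspa8, the constitutive Hsp70, at 149.8, 333, 293 and 266 FPKM, both also lowest in library 5. In the class of 23 genes 20 were lowest in library 5, and 16 to 20 under the other scalings, against 42.3% of all genes as deposited and 18.2 to 34.7% under the others. Its share was 0.439% in library 5 and 0.785, 0.673 and 0.688% in the others.

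Promoter sequences are shown for 3 of the inducible heat shock genes that were low together in library 5, and for Fos. Scarb2, the steadiest abundant gene as deposited, is also shown. Hsp90aa1, also low in library 5, is not shown. Each is the 150 bases before the RefSeq start site (GRCm38.p6), 5′ to 3′ along the gene. Capitals mark GAANNTTC, 1 arrangement of the heat shock element, in the first 3, and TATANA, the TATA box, on either strand in the last pair.
Hspa1a, chr17:34972157-34972306, minus strand: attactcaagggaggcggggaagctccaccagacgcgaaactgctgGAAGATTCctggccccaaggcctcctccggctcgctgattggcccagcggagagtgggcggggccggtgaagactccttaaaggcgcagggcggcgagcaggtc
Hspa1b, chr17:34959239-34959388, minus strand: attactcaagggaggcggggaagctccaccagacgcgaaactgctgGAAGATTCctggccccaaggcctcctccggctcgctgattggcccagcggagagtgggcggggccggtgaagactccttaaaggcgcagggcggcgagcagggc
Hspb1, chr5:135887769-135887918, plus strand: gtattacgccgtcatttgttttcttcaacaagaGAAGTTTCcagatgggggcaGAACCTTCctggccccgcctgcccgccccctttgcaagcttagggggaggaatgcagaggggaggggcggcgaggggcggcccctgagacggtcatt
Fos, chr12:85473740-85473889, plus strand: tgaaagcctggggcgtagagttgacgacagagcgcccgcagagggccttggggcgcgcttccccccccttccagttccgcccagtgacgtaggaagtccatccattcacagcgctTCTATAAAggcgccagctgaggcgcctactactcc
Scarb2, chr5:92505658-92505807, minus strand: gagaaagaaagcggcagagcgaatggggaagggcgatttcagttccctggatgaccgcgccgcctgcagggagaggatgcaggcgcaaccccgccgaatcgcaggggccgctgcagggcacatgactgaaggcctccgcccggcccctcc
The Hspa1a and Hspa1b stretches were identical at 149 of 150 positions. Hspb1 held 2 matches to GAANNTTC, Fos 2 overlapping matches to TATANA and Scarb2 none. The same stretch of Junb and of Mxra8 was searched as well and is not printed. Junb, an immediate-early gene like Fos, held no match to TATANA. Mxra8, one of the steadiest abundant genes like Scarb2, held 1 match to GAANNTTC.

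Motifs were counted in the 250 bases before the start for the 6271 of 10023 gene symbols that have a single start in the RefSeq table. On either strand GAANNTTC was found in 4 of 10 heat shock genes, in 4.85% of all these genes and in 6.97% of the 22862 single-start promoters of the table. TATANA was in 11.1% of these genes against 24.4% of the table, and in 8 of 24 immediate-early genes. The GC box, GGGCGG, was in 65.0% against 32.4%. Along the steadiness scale, TATANA was in 9.36% of the genes within 1.25-fold and in 15.4% of those with a 2-fold range, and GGGCGG in 67.7% and 55.9%. Base composition differed along with these counts. The median GC content was 60.8% in these genes and 52% in the table, 61.6% within 1.25-fold and 59.2% with a 2-fold range. In the immediate-early genes it was 65%. The part of composition in the motif counts was not tested. A match is a description of the letters and not a measured site.

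Cytokine genes were few and unsteady. Of 57 chemokines and cytokines 19 passed, and 13 of these (68.4%) had a 2-fold range, against 5.02% of all genes. Cxcl1, which attracts neutrophils, stood at 136, 316, 321 and 166 FPKM, again highest in libraries 6 and 7. Il6 stood at 17.9, 60.1, 40.2 and 33.5 FPKM, while Csf1, the macrophage growth factor, stood at 36.4, 40.6, 37.8 and 45.0 FPKM. The summed macrophage markers, of which Lyz2, Cd68 and Cd14 were the highest, stood at 13.2, 14.4, 11.3 and 13.8 FPKM.

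Complement was carried by C3, the central component, at 1019, 422, 626 and 389 FPKM, and by its regulator Serping1 (611 ± 80.7 FPKM). C3 was highest in library 5, and so were 5 of the 10 complement genes as deposited (26.6% of all genes). With a constant sum 7 of the 10 were highest in library 5, but so were 53.0% of all genes, and under the other scalings 6 or 7 were, against 33.7 to 34.1%. Library 5 also had the highest Saa3, an acute-phase protein (43.8 FPKM against 3.19 to 7.90), Clu, the chaperone clusterin (65.8, 24.0, 9.64 and 22.8 FPKM), and Angptl4, a lipase inhibitor (37.8 FPKM against 10.1 to 14.2). The mesothelial sum was likewise highest in library 5 and lowest in library 7, and its part in these values was not tested.

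The TGF-β superfamily, the pathway of the floxed gene, was present at every step, with 37 of 47 listed genes. Among its ligands Tgfb3 was highest at 216, 186, 186 and 168 FPKM. Tgfb1 stood at 15.4, 27.0, 25.3 and 37.0 FPKM and Tgfb2 at 8.97, 9.74, 11.2 and 11.1 FPKM, an order kept in all 4 libraries. Gdf6, a BMP-type ligand, was the least steady of the named ones at 18.5, 35.3, 20.3 and 61.9 FPKM.

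Of the TGF-β receptors, Tgfbr2 (chromosome 9, 116084293 to 116175360, minus strand) stood at 49.6, 40.3, 46.7 and 45.4 FPKM. Its partner kinase Tgfbr1 was lower at 15.6, 15.5, 19.1 and 14.9 FPKM, and Tgfbr3, the betaglycan coreceptor, stood at 22.9, 17.6, 24.0 and 17.7 FPKM. The signal carriers Smad4 (25.4 ± 0.622 FPKM) and Smad3 (13.4 ± 2.08 FPKM) and the inhibitory Smad7 (30.3 ± 5.75 FPKM) were all in a similar range. A 2-fold range was found for 6 of the 37 genes: Gdf6, Tgfb1, Fstl3, Gdf15, Bmp2 and Gdf10. This is 16.2% of the class, against 5.02% of all genes.

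Other growth factor pathways were led by receptors and by secreted antagonists. Pdgfrb, which responds to PDGF-B, stood at 120, 106, 106 and 125 FPKM, and per length exceeded Pdgfra 1.64- to 2.76-fold. The counted lengths are 5478 bases for Pdgfrb and 10024 for Pdgfra. Pdgfrb had 19316, 16447, 11862 and 19568 reads and Pdgfra 20919, 13938, 13219 and 12990. By reads Pdgfra was thus the higher in libraries 5 and 7. Fgfr1 was steady at 50.6 ± 1.80 FPKM. In the Wnt class the secreted antagonists Sfrp2 (526 ± 96.1 FPKM), Sfrp1 (326 ± 22.8 FPKM) and Dkk3 (135 ± 12.9 FPKM) led, while the highest Wnt ligand, Wnt9a, stood at 8.11, 7.27, 12.5 and 9.49 FPKM. In the insulin-like growth factor class, Igfbp3 was at 15.9 FPKM in library 8 against 41.2, 51.9 and 49.9 FPKM in the others, and Igf1 at 30.7, 27.1, 24.5 and 27.2 FPKM.

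Across all 10024 genes the coefficient of variation (SD over mean, CV) over the 4 libraries had a median of 11.8%, with quartiles of 7.83 and 17.1%. Counting error alone, from the recovered reads, gave a median of 3.54%. A range of at most 1.25-fold was found for 3817 genes (38.1%) and of at least 2-fold for 503 (5.02%). The CV did not fall steadily with abundance: the median CV was 13.9% at 1 to 2 FPKM, 10.5% at 5 to 10 and 14.2% at 100 FPKM or more, where 32 of 349 genes (9.17%) had a 2-fold range.

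**Figure D4:**
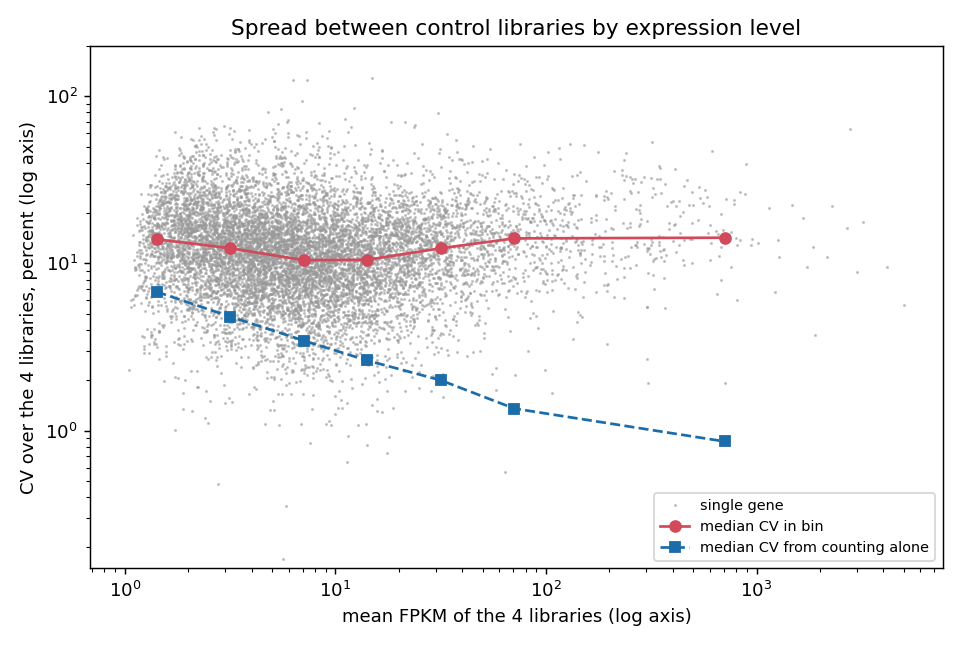
CV over the 4 libraries against mean FPKM for 10024 genes (both axes log), with the median CV per bin of level in red and the median expected from counting alone in blue. The gap between the lines widens from 13.9 against 6.77% at the lowest levels to 14.2 against 0.860% at the highest.

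As deposited, the steadiest abundant genes had varied roles. A constant sum shifts library 5 by 0.16 on the log2 scale against -0.06 to -0.04 for the others. Genes that are level across libraries as deposited are no longer level under that scaling. Scarb2, a lysosomal membrane protein, stood at 64.2, 63.4, 63.5 and 63.8 FPKM, a CV of 0.562% that was smaller than its counting CV of 0.979%. Ctsb, the lysosomal protease cathepsin B, stood at 109, 105, 107 and 105 FPKM. Mxra8, a matrix-remodelling associated membrane protein, stood at 307, 303, 295 and 308 FPKM. With Loxl1, Atp2a2, Lrp10, Mxd4, Rad21, Dctn1 and 1 other gene they made up the 10 lowest CVs among the 1868 genes with a mean of at least 20 FPKM. As deposited, lysosomal genes as a class had the lowest median CV (7.51%), and 1 of 28 had a 2-fold range. Cell cycle genes had the highest median CV (36.3%). Of the 28 lysosomal genes 5 were highest in library 5 as deposited, against 26.6% of all genes. With a constant sum 20 were, against 53.0% of all genes, and after quantile normalization also 20, against 33.7%.

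The least steady abundant genes came from many classes. Of the 15 highest CVs at a mean of at least 20 FPKM, Clu (79.7%), Myoc (70.5%) and Scara5 (67.6%), all outside the classes, led, and Gsn, Gdf6, Atf3, Spp1, Hspa1a and Hspa1b, described above, were among the rest. Myoc, myocilin, stood at 16.9, 16.6, 43.4 and 8.88 FPKM, and Scara5, a ferritin receptor, at 25.1, 15.4, 45.9 and 8.98 FPKM. Clec3b, tetranectin, stood at 343, 250, 540 and 140 FPKM. These 3 genes, like Gsn, were highest in library 7 and lowest in library 8. Prg4, lubricin, was highest in library 8, at 51.0 FPKM against 18.1 to 36.4.

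Single libraries stood apart by at least 2-fold from their nearest neighbour for few genes. Library 5 was above the others for 12 genes (0.12%) and below for 23 (0.229%), the latter including 5 heat shock genes. This balance depended on the scaling, with 43 genes above and 8 below after the sum was held constant. Library 7 was above for 16 (0.16%), led by Gsn and by Ackr3, a scavenging chemokine receptor (28.6, 24.9, 67.7 and 27.6 FPKM), and below for 7 (0.0698%). Library 8 was above for 2 (0.02%) and below for 7 (0.0698%), including Enpp2, which makes lysophosphatidic acid (13.1, 8.30, 13.4 and 3.39 FPKM). Library 6 was above for 4 (0.0399%), among them Hbb-bs and Hba-a1, the haemoglobin chains, at 21.0 and 18.1 FPKM against at most 3.52. Both are part of the erythroid sum, so its peak in library 6 is not a separate observation. Library 6 was below for 0 genes (0%).

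Gene length moved with the difference of library 5. Its level over the mean of the other 3 libraries had a median of 0.794 for genes under 1000 bases, 0.900 at 2000 to 4000 bases and 1.08 at 8000 bases or more. Libraries 6 and 8 ran the other way, from 1.07 to 0.950 and from 1.12 to 0.966, and library 7 went from 1.01 to 1.00. Each ratio is taken against the other 3 libraries, so these trends are not independent of that of library 5. Among the classes, 36 of 36 proteasome and ubiquitin genes were lowest in library 5 as deposited and 31 to 36 under the other scalings, against 42.3% of all genes as deposited and 18.2 to 34.7% under the others. The part of gene length in these class differences was not tested.

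**Figure D5:**
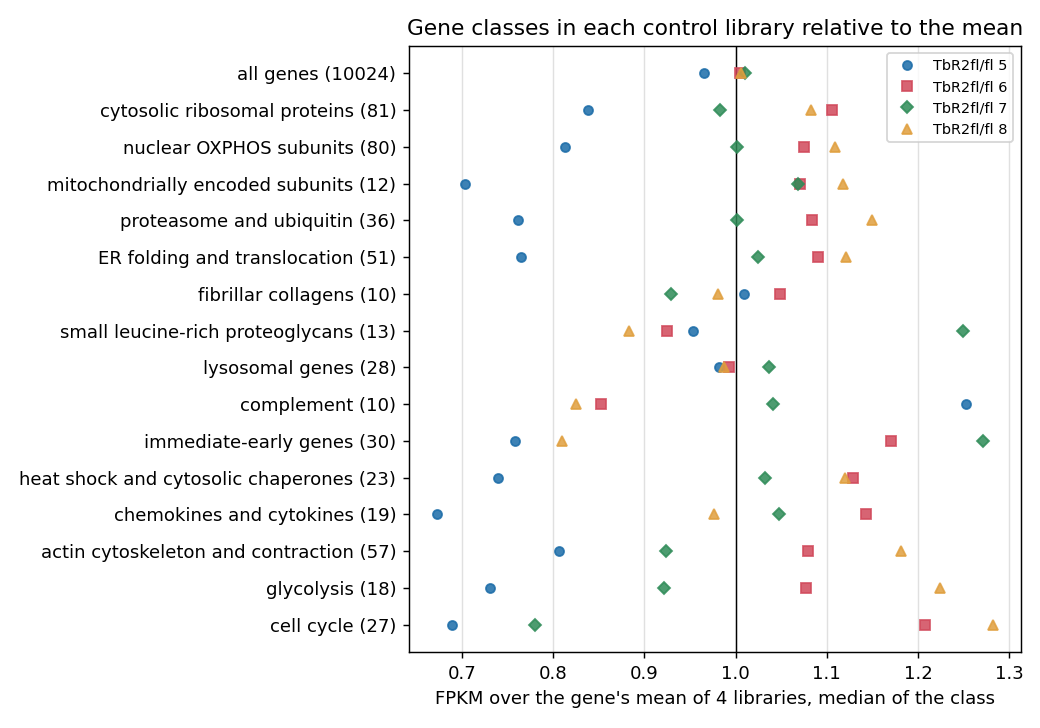
Median over the genes of a class of FPKM divided by the gene's mean of 4 libraries, for TbR2fl/fl 5 to 8, with the number of genes in brackets. Values are as deposited. Library 5 is lowest for ribosomal, mitochondrial, heat shock and cell cycle genes and highest for complement. Libraries 6 and 7 are highest for immediate-early genes, and lysosomal genes lie between 0.982 and 1.04 in all 4.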

How the data were processed

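RNA of FACS-sorted PDGFRα+ heart cells was extracted with Trizol, and poly(A) libraries were made with the NEBNext Ultra kit, per the labels' protocols. The authors deposited FPKM values per gene for each sample. Tools listed, per the submitters' processing notes, were HTSeq 0.6.1, Cufflinks 2.1.1, TopHat2 2.0 and CASAVA, with GRCm38.p6 and mm10 as builds and no role for each. The sources used here do not state whether counting used strand. Many genes named here overlap another annotated gene, among them Gsn, Col1a2, Col3a1, Col4a1, Col4a2, Scarb2, Pdgfra, C3 and Hspa1a, and reads of such partners cannot be told apart without strand. From the FPKM values and gene lengths, whole reads came out for 100% of nonzero values (tolerance 0.01) and were used for depth and counting error only, which leaves out error from library making. The 4 columns of the other genotype were not used.

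Shares are percentages of the summed FPKM of the 10024 genes and do not depend on the scaling of a library. Spread is given as SD, CV (SD over mean) and highest over lowest value. Other scalings were a constant sum over these genes, the median of ratios, and quantile normalization. Alternatives were a minimum of 5 FPKM or none, weighting by length, leaving out mitochondrially encoded genes, a log scale with a pseudocount of 1, and leaving out each library. The genes and lists were chosen with earlier results of these data known. Factor families come from the deposited table. Named by rule were the 20 highest genes, up to 4 per class, the 10 steadiest and 15 least steady with a mean of at least 20 FPKM, up to 5 per library and direction that it alone set apart by 2-fold, marker genes, Tgfbr2, and 3 genes on either side of the threshold. Other genes were named for their role after their values were seen, and Rps3a1 was added to the ribosomal class in the same way. Predicted genes and pseudogenes (212 by name) were counted but not named, and a few genes that the rule names are not reported here. Scripts used Python 3.11.15 with numpy 2.4.6, pandas 2.3.3, scipy 1.17.1 and matplotlib 3.10.9. Only the formula for the CV beyond counting error was tested on simulated data.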

Additional observations from a re-analysis of the deposited data

Results flagged for a closer look

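In each of 212 quantities with 4 library values, the gap between the most extreme library and its nearest neighbour was set against the whole range by Dixon's criterion. It was passed by 17. Chance flags about 1 in 20 groups, but several of the genes were named because 1 library stood apart or because they are sex-linked, so the number cannot be read against that rate. No cause was tested.

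Library 5 stood apart from the others in its share of mitochondrially encoded subunits (2.70%, against 3.48 to 3.58%) and in mt-Co1 (2356 FPKM, against 3378 to 3578). It was also apart in Hsp90ab1 (270.5 FPKM, against 364 to 379), Saa3 (43.8 FPKM, against 3.19 to 7.90) and Angptl4 (37.8 FPKM, against 10.1 to 14.2). In the same library 10686 protein-coding genes reached 1 FPKM (10456 to 10494 elsewhere), 287 of the 10024 genes reached 100 FPKM (362 to 374 elsewhere), and their summed FPKM was 213857 (246176 to 250466 elsewhere).

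Library 6 stood apart in the erythroid sum (43.6 FPKM, against 3.56 to 7.17), with Hbb-bs at 21.0 FPKM and Hba-a1 at 18.1 FPKM. Library 7 had the fewest reads (21.2 M, against 27.7 to 28.7 M) and the highest Ackr3 (67.7 FPKM) and Adam5 (1.34 FPKM, against 1.00 to 1.03). Library 8 had the highest share of matricellular glycoproteins (6.05%, against 5.27 to 5.31%). It was also apart in the Y-linked Ddx3y (14.2 FPKM) and Eif2s3y (11.4 FPKM).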

How the results depend on the processing

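With a minimum of 5 FPKM, 5426 genes passed, of which 164 had a 2-fold range, and the matrix share was 20.8%. Weighted by length, the matrix share was 29.3% and that of the 100 highest genes 37.0%. Without mitochondrially encoded genes these shares were 20.2% and 33.5%. The median CV was 15.1% with no minimum and 9.91% as an SD of log values with a pseudocount of 1. Leaving out 1 library in turn gave a median CV of 8.55 to 12.6% and 240 to 464 genes with a 2-fold range. There were 240 without library 5 and 297 without library 8, and both move the main count of 503 by over 1.5 times. A gene's range cannot widen when a library is left out, so for the same genes this count can only fall or stay. None of the 5 summary values (gene number, matrix share, share of the 100 highest, median CV, 2-fold count) has a direction to reverse. The library that was extreme did change with scaling: with a constant sum library 5 turned from 12 genes above and 23 below the others to 43 and 8, immediate-early genes lowest in libraries 5 and 8 turned from 21 and 9 to 9 and 21, and after quantile normalization ribosomal genes lowest in libraries 5 and 7 turned from 77 and 3 to 18 and 54. Of the class values, 35 of 265 shares, 64 of 231 median CVs and 58 of 231 counts of 2-fold ranges moved by more than their spread or 1.5 times. The class counts of 2-fold ranges include those with 1 library left out, which likewise could not rise.

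No paired analysis was possible because there is 1 group and its sample numbers are not shared with the other. With 4 libraries of 1 group, spread between animals and between preparations cannot be told apart, and the median counting CV is 6.77% at 1 to 2 FPKM. Levels near 1 FPKM, and of genes with near-identical copies, are the least certain.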

Other observations

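Beside the protein-coding genes, 1 non-coding gene took a large part of the deposited FPKM. Gm23935 stood at 44492, 62543, 89975 and 42908 FPKM in libraries 5 to 8, or 16.0, 18.9, 24.7 and 13.9% of the FPKM summed over all genes. It is highest in library 7. It does not enter the shares in the report, which are taken over the 10024 protein-coding genes.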
